A study of Mus musculus with 11 samples.

Results

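Expression of the Lgr receptors and of the genes that Wnt signalling switches on as its own feedback was compared among otospheres (OS), the cochlear sensory epithelium (CSE) they were grown from, and embryonic stem cells (ESCs). The rule for the set used no measured value, but its members were chosen with earlier results of these data known. The set was given as 10 gene symbols: the receptors Lgr4, Lgr5 and Lgr6, the ubiquitin ligases Rnf43 and Znrf3, the inhibitors Axin2 and Nkd1, and the transcription factors Lef1, Tcf7 and Sp5. These were 10 of 20284 genes that could be named on the array, of which 18565 had a probe kept after the filter on dim probes, and 14 probes of the 10 genes were found, all of them kept. The main probe of a gene was the brightest of those named through the accession in the files. For Lef1, a probe named only through a table of the study was brighter than the main probe and is given beside it.

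All cochlear material came from ICR mice at postnatal day 1, with 10 mice and 20 cochleae pooled for a preparation. CSE was freshly dissected, with the spiral ligament and the stria vascularis taken off, and was not cultured. OS were secondary solid spheres. Dissociated CSE cells had been grown floating in serum-free medium with N2, B27, bFGF, IGF1 and heparan sulfate for 4 to 5 days, passaged once, grown for 4 to 5 days again and passed through a 100 µm strainer to remove hollow spheres. ESCs were the lines G4-2 (ES1) and D3 (ES2) at passage 13, kept without feeder cells in serum and LIF. Each line was 1 array, so line and replicate cannot be told apart. RNA was hybridized to 11 single-colour arrays on 2 slides, 6 for OS, 3 for CSE and 2 for ESCs.

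Of 59305 spots that were not controls, 55.1% to 71.6% were well above background per array and 0 were saturated. OS1 differed from OS2, and OS4 from OS5, by less than the noise between spots of 1 probe (ratios of the SD between arrays to that noise of 0.896 and 0.407 over 13474 bright probes, against at least 1.54 for every other pair within a group). Each of these pairs was therefore averaged and counted as 1 sample, leaving 4 OS, 3 CSE and 2 ESC samples. Defining markers followed the labels in ESCs, where Pou5f1, which maintains pluripotency, was 14.1 on the log2 scale against 5.43 in OS and 5.40 in CSE. Of the supporting cell and prosensory markers, 8 of 12 were lower in OS than in CSE, and Prox1 was not well above background on any OS array. Of the hair cell markers, 5 of 10 were lower in OS and 1 was higher (Ocm, by 3.40), and Cdh23 was not well above background on any OS array. Some markers of other cell types were lower in OS too. These were 7 of 8 for spiral ganglion neurons (mean log2 level 7.13 to 8.09 in OS against 11.21 to 12.25 in CSE) and 3 of 6 for endothelium. They were 3 of 8 for Schwann and satellite glia (1 higher) and 2 of 5 for macrophages (1 higher). The mean macrophage level was 8.05 to 9.10 in OS against 8.11 to 8.54 in CSE. Lower in OS were 1 of 10 for mesenchyme and 0 of 6 for T lymphocytes. Of all probes, 6.19% were called lower in OS than in CSE and 4.84% higher (limma, adjusted p under 0.05), shares to set beside each of these counts. The part of these cell types in the results below was not tested. The labels do not say that samples of a group came from separate cultures, so the p-values measure only the spread between these samples, which may be technical.

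In the canonical Wnt pathway, a Wnt ligand binds a Frizzled receptor with an Lrp co-receptor, beta-catenin escapes destruction, and it joins Tcf and Lef factors on target genes. R-spondins, bound by Lgr4, Lgr5 or Lgr6, remove Rnf43 and Znrf3 from the cell surface, and these ligases otherwise take Frizzled receptors down. Several targets close the loop: Axin2, Nkd1, Rnf43 and Znrf3 damp the signal. In the neonatal cochlea, Lgr5 marks a group of supporting cells that can divide and give rise to hair cells, and Lgr5 is itself a Wnt target.

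Of the 10 genes, 6 were lower in OS than in CSE (Lgr5, Rnf43, Axin2, Nkd1, Tcf7 and Sp5) and 0 were higher, by limma at an adjusted p under 0.05. Over all 47997 probes tested, 6.19% were called lower in OS and 4.84% higher (11% in either direction). The median log2 difference of the 10 genes was -1.91, against 0.02 over all probes. Against ESCs the picture was mixed: Lgr5 and Rnf43 were higher in OS and Tcf7 was lower, so 2 of 10 were higher where 12.1% of all probes were, and 1 of 10 was lower where 15.6% of all probes were (27.7% in either direction). Here the median of the 10 genes was -0.35 and that of all probes -0.03. In CSE against ESCs, 4 of 10 were higher (Lgr5, Rnf43, Axin2 and Nkd1) and 1 was lower (Tcf7), against 13.2% and 15.6% of all probes (28.8% in either direction). Over the 3 groups at once, limma's F-test called 6 of 10, the genes called in OS against CSE, where it called 33.8% of all probes. The 3 comparisons share their samples, so they are not independent of each other. In bulk RNA such as this, fewer cells of a type and less RNA per cell cannot be told apart.

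**Figure D1:**
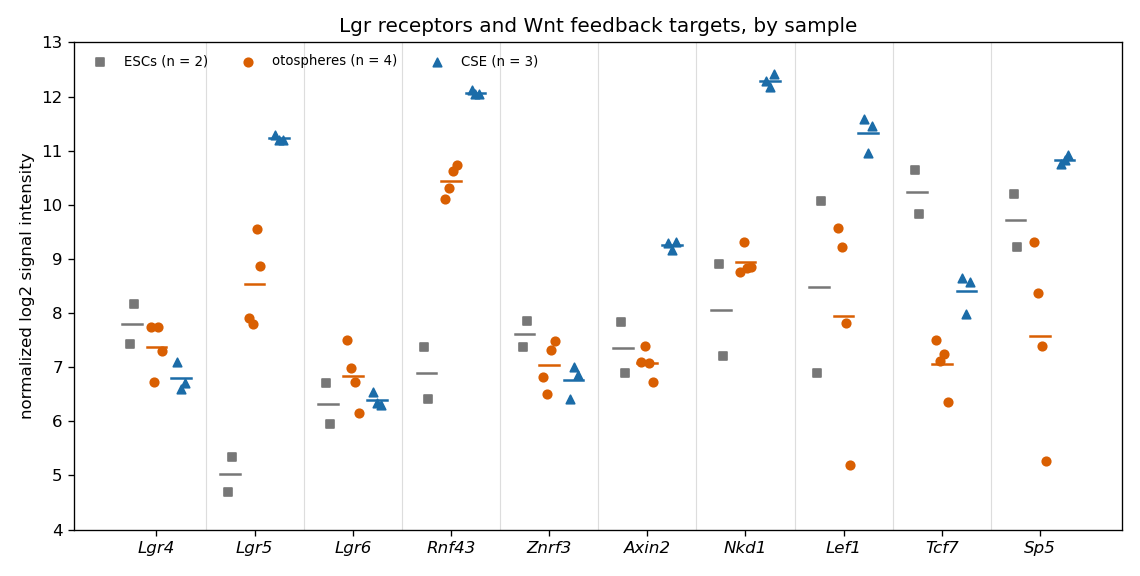
Normalized log2 signal intensity of the main probe of each of the 10 genes (vertical axis) in every sample, with ESCs as grey squares, OS as orange circles and CSE as blue triangles; short lines are group means. All 4 OS samples lie below all 3 CSE samples for Lgr5, Rnf43, Axin2, Nkd1, Lef1, Tcf7 and Sp5, of which Lef1 did not pass the test. The share of all probes that separate in this way was not counted. The OS samples of Lef1 and Sp5 are the most spread out. Signals of different probes are not comparable with each other.

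Lgr5 was the only Lgr receptor that passed the test in any comparison. Its log2 signal was 11.29, 11.20 and 11.20 in CSE1, CSE2 and CSE3. In OS it was 7.91 (OS1-2), 7.80 (OS3), 9.56 (OS4-5) and 8.88 (OS6). In ESCs it was 4.69 in ES1 and 5.34 in ES2, not well above background on either array. The CSE samples were thus nearly alike, every OS sample lay below them, and both ESC samples lay below every OS sample. OS were lower than CSE by a log2 difference of -2.69 ± 0.41 (SE), a 6.47-fold difference (limma, adjusted p = 0.00368). OS were at least 8.89-fold higher than ESCs (adjusted p = 6.28e-04) and CSE at least 57.5-fold higher than ESCs (adjusted p = 4.34e-05). These lower bounds compare the brighter group with the faintest signal that counted as well above background on each ESC array, since Lgr5 itself lay under it. The order CSE above OS above ESCs was thus past the threshold at each step.

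Lgr4 and Lgr6, which bind the same R-spondins, did not share this pattern. Lgr4 measured 7.74, 6.73, 7.74 and 7.30 in OS1-2, OS3, OS4-5 and OS6, against 7.09, 6.59 and 6.70 in CSE and 7.42 and 8.17 in ESCs. The OS and CSE values overlapped, with a difference of 0.59 on the log2 scale and a 95% interval of -0.09 to 1.26 (adjusted p = 0.307). Lgr4 did not overlap between CSE and ESCs, at group means of 6.79 and 7.80 and a 95% interval of the difference of -1.81 to -0.19 (adjusted p = 0.0659). With 1 OS or CSE sample left out, the adjusted p ran from 0.0320 (without OS3) to 0.154 (without CSE2). The difference was -1.38 without ES1 and -0.63 without ES2. Lgr6 measured 7.51, 6.98, 6.72 and 6.15 in the same order of OS samples, against 6.54, 6.34 and 6.30 in CSE and 6.71 and 5.94 in ESCs. All 3 groups overlapped for Lgr6, and OS minus CSE was 0.45 (95% interval -0.27 to 1.17, adjusted p = 0.514).

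The membrane ligases that Lgr receptors act against also parted. Rnf43 measured 10.11, 10.31, 10.62 and 10.73 in OS1-2, OS3, OS4-5 and OS6, between 12.12, 12.04 and 12.04 in CSE and 7.37 and 6.41 in ESCs. No groups overlapped. It was 3.09-fold lower in OS than in CSE (log2 difference -1.63 ± 0.25, limma adjusted p = 0.00384) and 11.7-fold higher in OS than in ESCs (3.55 ± 0.28, adjusted p = 4.44e-05). With Lgr5, it was 1 of only 2 members of the set ordered CSE, OS, ESCs with every step past the threshold. Znrf3, its close relative, measured 6.82, 6.50, 7.31 and 7.49 in OS, 6.41, 7.01 and 6.85 in CSE, and 7.37 and 7.86 in ESCs. Its OS values overlapped both other groups. OS minus CSE was 0.27 (95% interval -0.36 to 0.90, adjusted p = 0.693) and OS minus ESCs was -0.58 (adjusted p = 0.216).

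The intracellular inhibitors Axin2 and Nkd1 were both lower in OS than in CSE, with little spread within either group. Axin2, a scaffold of the beta-catenin destruction complex and a widely used readout of Wnt activity, measured 7.09, 7.40, 7.07 and 6.73 in OS1-2, OS3, OS4-5 and OS6. It measured 9.29, 9.17 and 9.31 in CSE, all above every OS sample, and 7.83 and 6.89 in ESCs. It was 4.55-fold lower in OS than in CSE (log2 difference -2.19 ± 0.25, limma adjusted p = 8.65e-04). OS and ESCs overlapped, at a difference of -0.28 with a 95% interval of -0.92 to 0.35 (adjusted p = 0.513). A second Axin2 probe gave a smaller OS minus CSE difference of -0.59 (adjusted p = 0.0431).

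Nkd1, which binds Dishevelled and damps the signal, measured 8.75, 9.31, 8.83 and 8.85 in OS and 12.28, 12.19 and 12.41 in CSE. OS were 10.2-fold lower (log2 difference -3.36 ± 0.35, limma adjusted p = 6.37e-04), and a second probe gave -2.40 (adjusted p = 5.26e-04). The 4 OS samples spanned 0.56 on the log2 scale and none came near CSE. In ESCs Nkd1 was 8.90 in ES1 and 7.21 in ES2. OS minus ESCs was 0.88 (adjusted p = 0.145). It was 1.73 without ES1 and 0.03 without ES2, so its size depended on which ESC array was kept. Line, replicate and slide cannot be told apart for these arrays.

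Lef1 and Sp5 varied most among OS samples. Lef1, a partner of beta-catenin that is also induced by it, measured 9.58 in OS1-2, 9.22 in OS3, 7.82 in OS4-5 and 5.18 in OS6, where it was not well above background. It measured 11.59, 10.96 and 11.45 in CSE, above every OS sample, and 6.90 and 10.06 in ES1 and ES2. The OS minus CSE difference was -3.39 ± 1.07 with a 95% interval of -5.82 to -0.95 and did not pass the test (limma, adjusted p = 0.0853). It was -2.46 without OS6 (adjusted p = 0.103). The brighter probe, named Lef1 by the study, gave 10.78, 10.33, 8.82 and 5.60 in the OS samples, the same order, and a difference of -3.80 (adjusted p = 0.0723).

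Sp5, a zinc finger factor induced by Wnt in many tissues, followed the same order over the OS samples: 9.31 in OS1-2, 8.36 in OS3, 7.40 in OS4-5 and 5.26 in OS6, again not well above background in OS6. CSE measured 10.75, 10.83 and 10.93, and ESCs 10.20 and 9.22. OS were 9.53-fold lower than CSE (log2 difference -3.25 ± 0.80, adjusted p = 0.0333). The difference was -2.48 without OS6 (adjusted p = 0.0145). It lost the call without OS4-5 (adjusted p = 0.0856), CSE1 (0.105), CSE2 (0.0876) or CSE3 (0.111), where the difference lay between -3.29 and -3.19. OS and ESCs overlapped, at -2.13 (adjusted p = 0.123). With 1 OS or CSE sample left out, the adjusted p ran from 0.0385 (without OS1-2) to 0.202 (without OS4-5). The difference of OS from ESCs was -1.64 without ES1 and -2.62 without ES2.

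Tcf7, also called TCF1, was the 1 gene of the set called lower in both OS and CSE than in ESCs. It measured 10.65 and 9.83 in ES1 and ES2, 8.64, 7.99 and 8.58 in CSE, and 7.50, 7.11, 7.25 and 6.35 in OS, with no overlap between any groups. OS were 9.11-fold lower than ESCs (log2 difference -3.19 ± 0.36, limma adjusted p = 2.91e-04) and 2.55-fold lower than CSE (-1.35 ± 0.32, adjusted p = 0.0286). The difference from CSE missed the threshold without OS3 (adjusted p = 0.0506), OS4-5 (0.0590), CSE1 (0.119) or CSE3 (0.109). It also missed it on a second probe (-0.43, adjusted p = 0.434), which was well above background on 1 of 6 OS arrays. CSE minus ESCs was -1.84 (adjusted p = 0.00662, and 0.0537 without ES1). Tcf7 is also a factor of T lymphocytes. The level of the T lymphocyte markers, as the mean over 5 of 6 genes, was 7.38 to 7.59 in OS, 7.51 to 8.09 in CSE and 8.20 to 9.01 in ESCs. Of the 6 markers, 2 were lower in OS than in ESCs (Lck and Cd2), where 15.6% of all probes were. In CSE, 1 was lower than in ESCs (Lck), where again 15.6% of all probes were. In OS against CSE 0 passed the test, and Cd3g was not well above background on any OS or CSE array. The part of these markers in the Tcf7 result was not tested.

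**Figure D2:**
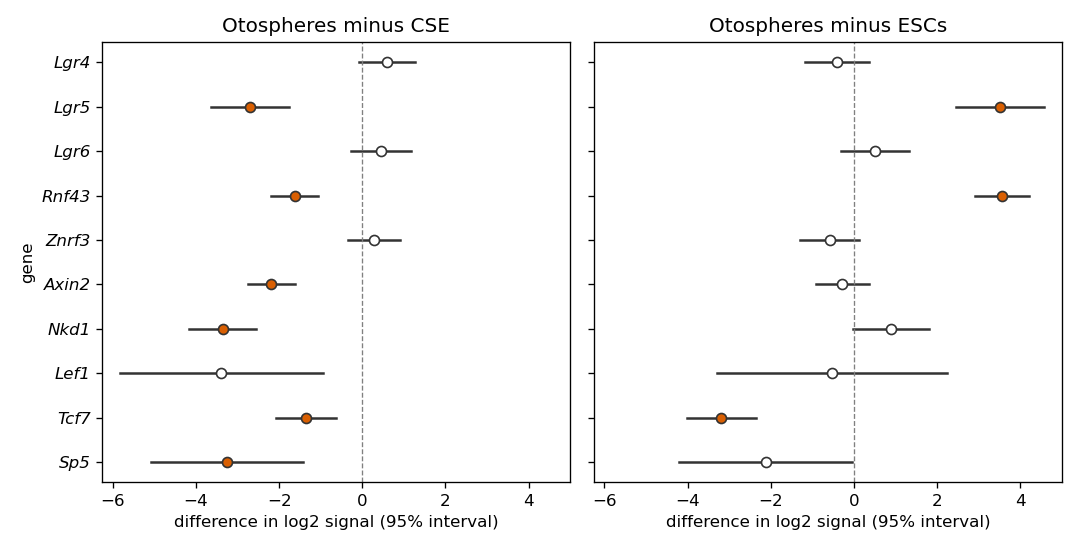
Difference in log2 signal (horizontal axis) of OS from CSE (left) and of OS from ESCs (right) for each of the 10 genes, with bars for the 95% interval from limma; filled points passed an adjusted p of 0.05 over all probes. Filled points lie left of 0 for 6 genes against CSE, while against ESCs Lgr5 and Rnf43 lie to the right and Tcf7 to the left. For Lgr5 against ESCs the point is the measured difference, which lies above its lower bound.

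Letters that Tcf and Lef factors are known to bind were looked for in the 250 bases upstream of each transcription start, to set the sequences beside the expression values. The RefSeq promoter table (build GRCm38.p6, matched by symbol) held windows for 8 of the 10 genes, 13 windows in all, and did not hold Lgr5 and Znrf3. The motifs CTTTGA and CTTTGT were searched on both strands. At least 1 match stood in 2 of 13 windows and in 27.6% of all 32851 windows of the same length. Both of those windows, of Sp5 and of 1 of 4 Lef1 starts, held 3 or more matches, as did 0.776% of all windows. The number 3 was chosen after the Sp5 sequence had been seen. These windows of Sp5 and Lef1 are printed with the Axin2 window, which held 0 matches. A link between matches and expression was not tested. Each runs 5′ to 3′ on the gene's own strand (+), with every match in capitals: Sp5 at chr2:70474673-70474922, Lef1 at chr3:131156044-131156293 (an internal start of the gene) and Axin2 at chr11:108920099-108920348.
Sp5: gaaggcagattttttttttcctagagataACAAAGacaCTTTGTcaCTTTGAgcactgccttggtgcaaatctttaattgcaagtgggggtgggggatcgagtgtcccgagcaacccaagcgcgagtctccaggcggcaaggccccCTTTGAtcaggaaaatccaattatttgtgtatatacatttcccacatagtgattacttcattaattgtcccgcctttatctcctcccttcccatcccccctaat
Lef1: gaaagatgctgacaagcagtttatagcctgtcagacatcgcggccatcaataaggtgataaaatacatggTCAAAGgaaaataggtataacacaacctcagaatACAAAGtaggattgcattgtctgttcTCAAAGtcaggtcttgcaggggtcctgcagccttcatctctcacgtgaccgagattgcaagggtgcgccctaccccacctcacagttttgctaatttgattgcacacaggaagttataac
Axin2: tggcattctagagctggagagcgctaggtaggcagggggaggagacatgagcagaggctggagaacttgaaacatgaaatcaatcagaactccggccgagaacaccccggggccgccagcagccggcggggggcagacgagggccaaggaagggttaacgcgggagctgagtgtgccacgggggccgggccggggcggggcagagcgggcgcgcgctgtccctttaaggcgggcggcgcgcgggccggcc
The Sp5 window carried 4 matches, 3 of them close together near its far end, and the Lef1 window 3. A match is a description of letters, and a window without one says nothing about the factor.

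Among the 4 OS samples, Lef1 spanned 4.40 and Sp5 4.05 on the log2 scale. Of all kept probes, 99.5% had a smaller OS range than Lef1 and 99.3% a smaller one than Sp5. Lgr5 spanned 1.76 (92.6% of probes smaller) and Lgr6 1.36 (87.6%). Nkd1, Rnf43 and Axin2 spanned 0.56, 0.62 and 0.67, near the middle of all probes (47.6%, 53.4% and 57.7% smaller). Lef1, Sp5 and Lgr6 were each highest in OS1-2, then OS3, OS4-5 and OS6. Lgr5, Rnf43 and Znrf3 were instead higher in both OS4-5 and OS6 than in both OS1-2 and OS3. The former lay on the second slide and the latter on the first. Slide and sample differences among OS therefore cannot be told apart here. The second slide minus the first was 1.36 in OS and -0.04 in CSE for Lgr5. It was 0.46 and -0.04 for Rnf43, and 0.74 and 0.14 for Znrf3. CSE3 was the only CSE array on the second slide, and the part of the slide was not tested.

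Some marker lists shared an order with these genes over the OS samples, and others did not. The mesenchyme and fibroblast markers, as the mean log2 level of 10 genes, were 11.60 in OS1-2, 12.26 in OS3, 10.46 in OS4-5 and 8.47 in OS6, against 12.20 to 12.69 in CSE and 6.64 to 7.02 in ESCs. Every marker of that list was well above background on at least 1 OS array. Of its 10 genes, 1 was lower in OS than in CSE, where 6.19% of all probes were. The proliferation markers (8 genes) were 11.19, 10.03, 9.17 and 7.64 in the same samples, the order of Lef1, Sp5 and Lgr6. The Schwann and satellite glia markers (8.56, 8.20, 7.37 and 7.22, 8 genes) and the macrophage markers (9.10, 8.90, 8.63 and 8.05, 5 genes) had that order too. The hair cell markers (10 genes) were 7.80, 7.36, 8.86 and 9.28, and the supporting cell and prosensory markers (12 genes) 9.36, 9.31, 9.95 and 9.78. The spiral ganglion neuron markers (8 genes) were 7.62, 7.13, 8.09 and 8.09. These lists were all higher in OS4-5 and OS6, the samples of the second slide, as were Lgr5, Rnf43 and Znrf3. The endothelial markers were 8.02, 8.07, 7.83 and 7.10 (6 genes) and the T lymphocyte markers 7.55, 7.38, 7.50 and 7.59 (5 genes). The pluripotent cell markers were 7.15, 7.54, 7.36 and 7.88 (8 genes). Like the mesenchyme list, which was highest in OS3, these followed neither order. The part of these markers in the results was not tested.

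**Figure D3:**
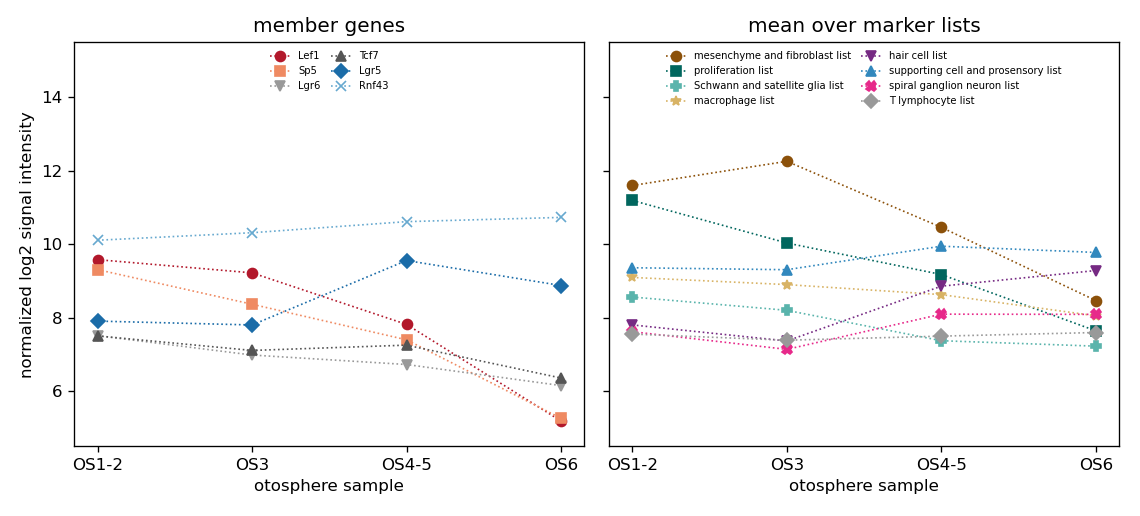
Log2 signal of 6 of the genes (left) and mean log2 level of 8 marker lists (right) in the 4 OS samples on the horizontal axis; the samples have no order, and dotted lines only tie the points of a gene or list. Lef1 and Sp5 drop to 5.18 and 5.26 in OS6, where the mesenchyme and proliferation means are also at their lowest. Lgr5 and Rnf43 are higher in OS4-5 and OS6 (second slide) than in OS1-2 and OS3 (first slide).

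OS1 to OS3 lay on the first slide with CSE1, CSE2 and ES1, and OS4 to OS6 on the second with CSE3 and ES2. Within the first and the second slide, the OS minus CSE difference was -3.39 and -1.99 for Lgr5, -1.87 and -1.37 for Rnf43, -1.99 and -2.41 for Axin2, and -3.20 and -3.57 for Nkd1. It was -1.01 and -1.77 for Tcf7, -1.95 and -4.60 for Sp5, and -1.88 and -4.95 for Lef1. All these 7 genes were thus lower in OS within both slides. That direction was fixed by every OS sample lying below every CSE sample for them, so it adds no support. CSE3 alone stood for CSE on the second slide. The share of all probes lower in OS within both slides was not counted. With slide as a block the same 6 genes were called, where 6.55% of all probes were called lower. For the other genes the within-slide values were 0.40 and 0.82 (Lgr4), 0.80 and 0.14 (Lgr6) and -0.05 and 0.55 (Znrf3).

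The rest of the pathway was read from 7 lists holding 80 genes. Between OS and CSE, 4 of these genes were higher and 14 lower in OS. Of all probes, 4.84% were higher and 6.19% lower, shares to set beside the count of each list below. Of the 4 R-spondins, the ligands of Lgr receptors, 0 passed the test. Rspo2, named after its values were seen, measured 7.47, 6.63, 9.57 and 10.29 in OS1-2, OS3, OS4-5 and OS6 against 10.39, 10.72 and 10.59 in CSE (difference -2.08, adjusted p = 0.147). Rspo2 was again higher in OS4-5 and OS6. Rspo1 (10.17, 10.99, 8.95 and 6.75 in OS1-2, OS3, OS4-5 and OS6) and Rspo3 (7.80, 8.08, 6.95 and 6.09) were instead lower there. Rspo3 differed from CSE by -1.57 (adjusted p = 0.0519). Rspo2 was at least 8.61-fold higher in OS than in ESCs (adjusted p = 0.0151). Of 17 measured Wnt ligands of 19, 1 was higher in OS than in CSE, Wnt7b (1.61 ± 0.29, adjusted p = 0.00793), and 0 were lower.

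Of 12 Frizzled and Lrp receptors, 2 were lower in OS than in CSE and 0 higher. Fzd10 measured 6.33, 5.86, 5.60 and 4.64 in OS, well above background on 5 of 6 OS arrays, against 12.26, 11.67 and 12.35 in CSE, a difference of -6.49 ± 0.43 (adjusted p = 8.13e-05). Fzd9 measured 9.01, 8.57, 9.70 and 8.32 in OS and 13.86, 13.37 and 14.43 in CSE, a difference of -4.99 ± 0.36 (adjusted p = 1.13e-04). No OS sample came near CSE for either receptor.

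The secreted antagonists were the list with the most calls: 6 of 13 were lower in OS than in CSE and 0 higher, with a median log2 difference of -1.66, or -2.27 with the 2 genes that were not well above background in either group left out. Wif1, which binds Wnt ligands directly, differed by -4.52 (adjusted p = 0.0130), and its OS samples ran from 8.99 in OS1-2 to 4.70 in OS6. Dkk3, a relative of the Dickkopf inhibitors, differed by -4.37 (adjusted p = 5.70e-04), and Sostdc1, which binds Lrp co-receptors, by -3.46 (adjusted p = 0.00482). Sfrp4, named after its values were seen, stood at the other end, at 12.71, 13.45, 11.47 and 7.35 in OS against 6.97, 7.38 and 6.89 in CSE, but with OS6 at the level of CSE its difference of 4.16 ± 1.45 did not pass the test (adjusted p = 0.116). Among genes that transduce the signal, 1 of 11 was higher in OS (Dvl1, 0.88) and 2 were lower (Btrc, -1.92, and Apc2, -1.23). Of 10 other Tcf factors and beta-catenin partners, 2 were lower (the co-repressor Tle2, -1.50, and Pygo1, -0.95).

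Other genes that respond to Wnt did not move one way: of 11 measured, 2 were higher and 2 lower in OS than in CSE. Apcdd1, a membrane inhibitor of the pathway, was 7.72, 7.18, 6.37 and 5.10 in OS against 10.97, 10.38 and 10.44 in CSE (-4.00 ± 0.56, limma adjusted p = 0.00251), once more lowest in OS6. Fgf20, a growth factor of the prosensory cochlea, was not well above background on any OS array and at least 3.27-fold lower than in CSE (adjusted p = 0.00417). Ccnd1, cyclin D1, went the other way, at 15.12, 14.43, 15.12 and 14.85 in OS against 13.05, 12.95 and 13.11 in CSE (1.84 ± 0.20, adjusted p = 7.43e-04).

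**Figure D4:**
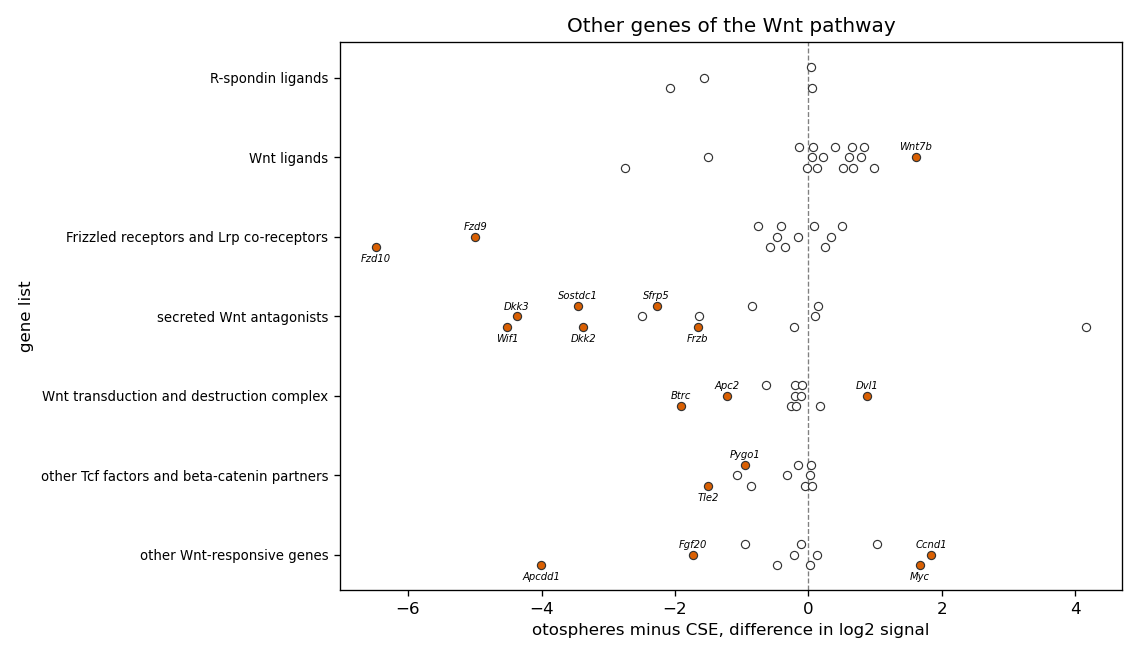
Difference in log2 signal of OS from CSE (horizontal axis) for each measured gene of the 7 pathway lists (rows, vertical offsets only separate points); filled and named points passed an adjusted p of 0.05. The secreted antagonists have 6 filled points, all left of 0, and the R-spondins have none.

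Against ESCs, 26 pathway genes were higher and 16 lower in OS. Of all probes, 12.1% were higher and 15.6% lower, and some counts of single lists were near these shares. The receptors led, with 7 of 12 higher (among them Fzd1, 4.19, and Fzd6, 2.50) and 3 lower (Fzd10, -4.61). Of 17 Wnt ligands, 5 were higher, with Wnt5a at 5.48 ± 0.17 (limma adjusted p = 2.96e-07) and Wnt7a at 4.22, and 3 were lower. The antagonists Frzb and Sostdc1 were at least 5.57-fold and 4.78-fold higher in OS, while Sfrp5 was lower (-2.01). Among transducers and partners, Gsk3b (2.39), Tle2 (1.89) and Tle1 (1.73) were higher, and Dvl2 (-2.10) and Tle4 (-2.22) were lower. Of the other Wnt-responsive genes, Tnfrsf19, which is also a marker of stem cells in several epithelia, was 4.01 higher, and Cdx1 (-3.69) and Ascl2 (-2.86) were lower.

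The genes most like Lgr5 over the 9 samples, by Pearson correlation among 14357 genes, were Ecrg4 (r = 0.993), Fam102b (0.992) and Npas3 (0.992). For Axin2 they were Fgfr3 (0.989), C1qa (0.986) and Gm10046 (0.985). For Sp5 they were Iffo1 (0.975), Wdr86 (0.973) and Mical1 (0.967). For Lgr6 they were Micall2 (0.956), Gpnmb (0.934) and Pon3 (0.927). These values describe the samples, which fall into 3 groups and share arrays and normalization, and no test was made.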

How the data were processed

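Per the file headers, scanner files came from Feature Extraction 10.7.3.1 and were not normalized. From each deposited file, the linear median intensity of spots and the matching local background were used. A deposited log2 table, in which the authors had corrected background with limma, applied quantile normalization and removed dim probes, served as an alternative. Here normexp (limma 3.58.1, R 4.3.3) was run with an offset of 16, the value the authors used being not given in the sources used here. Values were then taken to log2 and quantile-normalized over 11 arrays, outlier spots were dropped, and spots of a probe were averaged. A probe stayed (47997 of 55681) if it exceeded the 95th percentile of 308 negative controls by 10% on 2 or more arrays, the size of the ESC group.

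Probes were named through the RefSeq accession in the files (26762 probes, with 28919 unnamed), and a second Lef1 probe through a table of the study. Groups were compared with limma (lmFit and eBayes, 3 group means, no covariates), with Benjamini-Hochberg adjustment over all kept probes and a threshold of 0.05. The fit was tested on simulated data with 200 changed probes. All 10 genes were named, and from each list at most 3 genes with the largest difference among those called against CSE, and 3 against ESCs. Likeness was taken for Lgr5, Lgr6, Axin2 and Sp5 over genes with a range of at least 1 on the log2 scale. Alternatives covered background correction, scaling, the filter, the probe, slide, replicate number and samples left out. Within-slide values and the second Lef1 probe were added after the data were seen. The members and lists were chosen with earlier results of these data known. The number of arrays limits the precision. Which samples had 50 and which had 100 ng of RNA labelled is not given in the sources used here.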

Additional observations from a re-analysis of the deposited data

How the results depend on the processing

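Each gene's differences were recomputed under 19 alternatives. Lgr5, Axin2 and Nkd1 stayed lower in OS than in CSE and past the threshold under all 19. Rnf43 missed it under scaling to the 75th percentile of the processed signal (-1.36, adjusted p = 0.0571), as did Sp5 (-3.78, 0.0970), so 4 genes were lower there, with 5.36% of all probes. Tcf7 missed it as the mean over its probes (-0.89, 0.0795), and Lef1 passed it with every array as a separate sample (-3.14, 0.0451). Scaling to the 75th percentile moved the median of all probes to -0.28 for OS minus ESCs and -0.25 for CSE minus ESCs. It left 2 pathway genes higher in OS than in CSE in place of 4, with 3.59% of all probes higher. With every array separate, 2 of the 10 genes were lower in CSE than in ESCs in place of 1 (Tcf7 and Lgr4). The plain one-way test of the methods, after Benjamini-Hochberg adjustment, called 5 of the 10 genes over the 3 groups, where limma called 6 (33.8% of all probes).

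Leaving out 1 sample at a time, 4 to 6 of the 10 genes were lower in OS than in CSE and 0 higher, while the share of all probes called lower ran from 3.47% (without CSE1) to 6.96% (without either ESC line). Against ESCs 2 to 3 were higher and 1 to 2 lower in OS, and in CSE 4 to 5 were higher and 1 to 2 lower, while 22.9% to 27.7% and 23% to 29.5% of all probes were called in either direction. The pathway genes called ranged from 2 to 6 higher and 10 to 20 lower in OS against CSE, 14 to 27 higher and 13 to 16 lower in OS against ESCs, and 24 to 33 higher and 9 to 12 lower in CSE against ESCs. The lowest counts of 2 came without OS4-5, CSE2 or CSE3, and that of 14 without ES2.

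Deviations of arrays with the same replicate number in their titles correlated at 0.36 (OS1 with CSE1), -0.34 (OS2 with CSE2) and -0.39 (OS3 with CSE3). OS1 and OS2 differed by less than the noise between spots, so these values cannot show whether the numbers pair the samples. With the replicate number as a block and every array separate, 5 of the 10 genes were lower in OS than in CSE (Tcf7, adjusted p = 0.111, was not), where 5.14% of all probes were. There, 3 were higher than in ESCs (Lgr6 at 0.0387 among them) with 10.4% of all probes, and 7 passed over the 3 groups with 27.5% of all probes.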
